A study of Gallus gallus with 16 samples.

Results

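The surface epithelium genes described here are CDH1, EPCAM, PKP1, ESRP1 and FOXI3. They were picked by symbol from 5 comparison tables that the study's authors deposited, and they are 5 of 21357 rows in each table, of which 9225 carry a symbol. They were picked with their fold changes already known, so their values and p-values below are a description of these embryos and support nothing beyond it. PKP1 (ENSGALG00000000299), ESRP1 (ENSGALG00000031076) and FOXI3 (ENSGALG00000037457) also have a row of their own among the 26943 loci of the deposited count matrix. That row gives a level in each embryo. Rows with a gene identifier hold 0.334% of the matrix's counts, so such a row may hold only part of a gene's reads. Whether it does was not tested. CDH1 (ENSGALG00000000608) and EPCAM (ENSGALG00000008969) were read from the comparison tables alone, so for them there is a fold change and a p-value but no level per embryo.

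Epithelial cells form sheets held together by junctions at their sides. CDH1, or E-cadherin, is the adhesion protein of their adherens junctions, EPCAM is a cell surface adhesion molecule found on most embryonic epithelia, and PKP1, or plakophilin 1, links desmosomal cadherins to keratin filaments in stratified epithelia such as the epidermis. ESRP1 is an RNA-binding protein that sets the epithelial pattern of alternative splicing, and FOXI3 is a forkhead transcription factor of the ectoderm, known in chick and mouse for its part in placodes and branchial ectoderm and in mammals for hair and tooth development. In an embryo of this stage CDH1, EPCAM and ESRP1 mark the ectoderm that becomes skin, but also gut endoderm and several ducts, so these 3 genes alone do not tell skin from other epithelia.

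The material was wild type domestic chicken embryos, 1 RNA-seq library per embryo. The tissue was a spinal-cord-bearing piece cut from the region between mid neck and the rear of the wing bud, so any surface epithelium in it came along with the dissection. Eggs were injected before incubation, at their blunt end, with either nicotine hydrogen bitartrate at 30 ng/ml scaled to egg weight or sodium bitartrate monohydrate as vehicle, both in Ringer's solution. The 4 groups were nicotine embryos at day 7, vehicle embryos at day 7, nicotine embryos at day 5 and vehicle embryos at day 5, with 4 embryos in each, which the labels call biological replicates.

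Total counts ran from 21801247 to 29002315 per library. In 4 libraries, nicotine day 7 replicate 2, vehicle day 7 replicate 2, nicotine day 5 replicate 4 and vehicle day 5 replicate 2, 57 loci fell under 0.05 CPM (counts scaled to library size) although each of the other 12 libraries held them at 0.5 CPM or above. Where a gene's level was highest in these libraries, this is given beside its values. The labels give no sequencing batch and no embryo sex, and why these 4 libraries lack the 57 loci was not tested. The sources used here name no genome build, annotation or strand setting, so overlapping and antisense genes cannot be told apart and no coordinates are given. Of 9 spinal cord markers, PAX6, NKX6-1, ELAVL4 and ISL1 were listed in the tables, which carry no level; their fold changes are given beside those of other cell types.

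With an adjusted p under 0.05 as the call, most calls among the 5 genes were between the 2 days. So were most calls over all rows of the authors' deposited tables. In nicotine embryos at day 7 against day 5, CDH1, EPCAM, ESRP1 and FOXI3 were called lower and PKP1 higher in the authors' deposited table, where 31.1% of tested rows were called, 15.9% higher and 15.3% lower. In vehicle embryos at day 7 against day 5, EPCAM and FOXI3 were called lower in the authors' deposited table, against 36.8% of all rows called, 18.1% higher and 18.7% lower. Nicotine against vehicle at day 7 gave 1 call among the 5, CDH1, which was lower, where the authors' deposited table called 0.395% of rows, 0.221% higher and 0.174% lower. Nicotine against vehicle at day 5 gave 0 calls among the 2 members with an adjusted p, CDH1 and EPCAM, in the authors' deposited table. That table called 2.72% of its 11826 rows with an adjusted p, 0.761% higher and 1.96% lower. Neither CDH1 nor EPCAM had an unadjusted p under 0.05 there. The difference between the nicotine effects at the 2 days also gave 0 calls of 2, with CDH1 at an unadjusted p under 0.05. In that comparison the authors' deposited table called 2.25% of its 12651 rows with an adjusted p, 1.57% upward and 0.688% downward. Shares of rows called, here and below, are always of the rows with an adjusted p.

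The median log2 fold change over the members can be set beside that over all rows of the authors' deposited tables. It was -0.89 against 0.01 for the day difference in nicotine embryos, and -0.24 against 0.04 for the day difference in vehicle embryos. For nicotine against vehicle it was -0.60 against 0.01 at day 7 and -0.01 against -0.000631 at day 5. FOXI3 is left out of the day 7 median, because both day 7 groups averaged no more than 3 counts per library and no fold can be given. The 5 tables share their embryos and their log2 fold changes add up exactly, so they hold 3 independent comparisons, and a gene's fold in 1 table is partly fixed by its folds in the others.

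**Figure D1:**
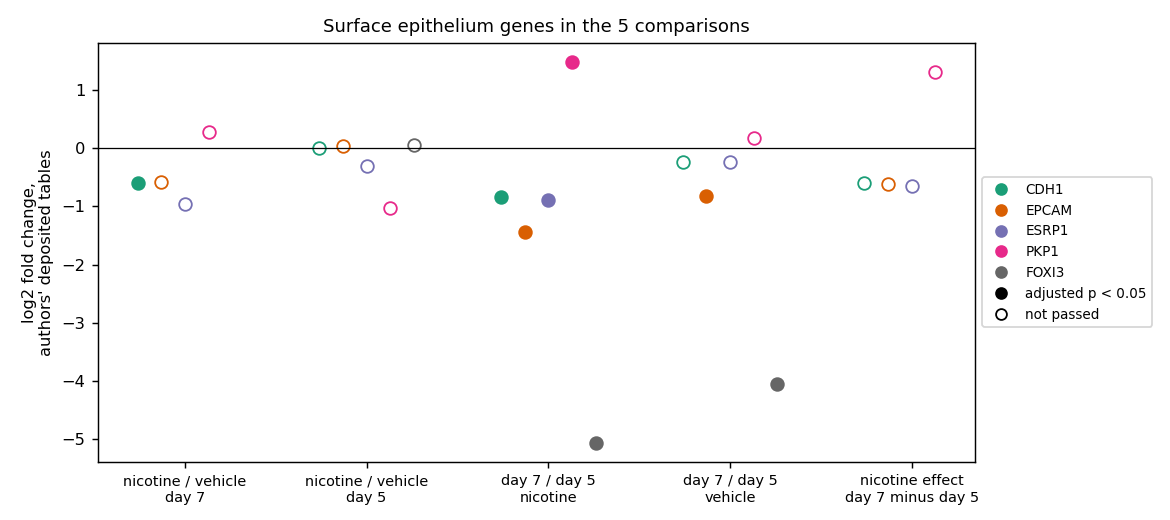
Log2 fold changes of the 5 surface epithelium genes in the authors' 5 deposited comparisons; filled points have an adjusted p under 0.05, open points do not, and the rightmost column is the nicotine effect at day 7 minus that at day 5. CDH1 at -0.61 is the filled point for nicotine against vehicle at day 7, and all 5 points are filled for the day difference in nicotine embryos; FOXI3 is not drawn where both day 7 groups were at or under 3 counts per library.

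CDH1 was the member called lower under nicotine at day 7. Its log2 fold change was -0.61 for nicotine against vehicle at day 7 in the authors' deposited table (adjusted p = 0.0320), rank 77 by p among the 84 called rows. At day 5 it was -0.01 in the authors' deposited table (adjusted p = 0.982). In nicotine embryos CDH1 was lower at day 7 than at day 5, with a log2 fold change of -0.84 (adjusted p = 1.61e-06) in the authors' deposited table. The value in vehicle embryos was -0.24 (adjusted p = 0.233) in the authors' deposited table. The difference between these responses was -0.60 in the authors' deposited table and did not pass (adjusted p = 0.117), so the nicotine effect is not shown to differ between the days.

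EPCAM fell with age under both treatments. Day 7 against day 5, the authors' deposited table gives log2 fold changes of -1.45 in nicotine embryos (adjusted p = 1.02e-07) and -0.83 in vehicle embryos (adjusted p = 0.00317). For nicotine against vehicle it was -0.58 at day 7 (adjusted p = 0.730) and 0.04 at day 5 (adjusted p = 0.935) in the authors' deposited table. The difference of the nicotine effects, -0.62, did not pass in the authors' deposited table (adjusted p = 0.30). At day 7 EPCAM's fold change was close in size to that of CDH1, but its unadjusted p in the authors' deposited table was 0.0179 against 0.000116 for CDH1.

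PKP1, the desmosomal member, did not follow CDH1 and EPCAM in direction. Its level was 0.947, 2.11, 0.453 and 1.40 CPM in the nicotine day 7 embryos and 0.481, 1.15, 0.973 and 1.13 CPM in the vehicle day 7 embryos, replicates 1 to 4 in order. It was 0.164, 0.106, 0.379 and 1.61 CPM in the nicotine day 5 embryos and 0.717, 1.08, 0.642 and 0.934 CPM in the vehicle day 5 embryos. The 2 day 7 groups overlap widely, and in the nicotine day 5 group 3 embryos lie below every vehicle day 5 embryo while replicate 4 lies above them all. These levels rest on few reads, between 3 and 58 counts per library.

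Nicotine day 7 embryos averaged 1.23 ± 0.703 CPM of PKP1, vehicle day 7 embryos 0.934 ± 0.312, nicotine day 5 embryos 0.565 ± 0.708 and vehicle day 5 embryos 0.845 ± 0.203 (SD, n = 4 each). In order of mean, nicotine day 7 stood first, then vehicle day 7, vehicle day 5 and nicotine day 5, and each neighbouring pair differed by less than the larger of its SDs. For day 7 against day 5 in nicotine embryos, the authors' deposited table gives a log2 fold change of 1.48 (adjusted p = 0.0402). It was 1.13 in edgeR's quasi-likelihood fit on the matrix (SE 0.68, 95% interval -0.32 to 2.57, adjusted p = 0.238), where 29.6% of loci were called, 13.1% higher and 16.5% lower. DESeq2 on the same matrix gave 1.18 and did not call it either (adjusted p = 0.209). Without nicotine day 5 replicate 4 the edgeR value was 2.52 (adjusted p = 0.00574). That library lacks the 57 loci named above, and in all 4 groups the library lacking them had the highest PKP1 level. With those 4 libraries left out, edgeR gave 2.13 (adjusted p = 0.0268), and with a term for them 1.43 (adjusted p = 0.0625).

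PKP1 was not called between treatments. edgeR gave a log2 fold change of 0.39 for nicotine against vehicle at day 7 (SE 0.66, 95% interval -1.01 to 1.80, adjusted p = 1) and -0.59 at day 5 (SE 0.68, 95% interval -2.04 to 0.86, adjusted p = 0.738). In vehicle embryos at day 7 against day 5 it was 0.14 (SE 0.67, edgeR adjusted p = 0.897). The difference of the nicotine effects was 0.98 (SE 0.95, edgeR adjusted p = 0.668). Without nicotine day 5 replicate 4 the day 5 value was -2.0 (edgeR adjusted p = 0.160) and the difference 2.39 (adjusted p = 0.218). With the 4 libraries lacking 57 loci left out, edgeR gave -1.86 at day 5, 1.98 for the difference and 0.12 at day 7. The matching values in the authors' deposited tables were 0.28, -1.03, 0.18 and 1.3, of which the first and the third carry an adjusted p, 0.9996 and 0.856.

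ESRP1, the splicing regulator, was lowest in the nicotine day 7 embryos. Its level was 1.68, 2.07, 1.09 and 0.806 CPM in the nicotine day 7 embryos and 2.57, 2.86, 1.91 and 3.51 CPM in the vehicle day 7 embryos, replicates 1 to 4 in order. At day 5 it was 2.01, 2.47, 2.65 and 3.70 CPM in the nicotine embryos and 3.72, 2.60, 2.52 and 3.98 CPM in the vehicle embryos. The day 7 groups overlap through 1 embryo, nicotine replicate 2, which stands above vehicle replicate 3, and 3 of the 4 nicotine day 7 embryos lie below each of the other 12 embryos of the study. Counts ran from 19 to 98 per library. In 2 of 4 groups the library lacking 57 loci had the highest ESRP1 level. These were nicotine day 7 replicate 2, the overlapping embryo, and nicotine day 5 replicate 4.

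The means for ESRP1 were 1.41 ± 0.570 CPM in nicotine day 7 embryos, 2.71 ± 0.663 in vehicle day 7 embryos, 2.71 ± 0.717 in nicotine day 5 embryos and 3.21 ± 0.751 in vehicle day 5 embryos (SD, n = 4 each). The upper 3 of these means lie within an SD of each other. For nicotine against vehicle at day 7, edgeR gave a log2 fold change of -0.94 (SE 0.30, 95% interval -1.58 to -0.29), with an unadjusted p of 0.00761 and an adjusted p of 1, so it was not called. edgeR called 0 of 18394 loci in that comparison, where 858 had an unadjusted p under 0.05 and DESeq2 called 31. The authors' deposited table has -0.95 for ESRP1 there (adjusted p = 0.384). With the 4 libraries lacking 57 loci left out, the edgeR value for ESRP1 was -1.16, also not called.

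In nicotine embryos ESRP1 was called lower at day 7 than at day 5, with an edgeR log2 fold change of -0.93 (SE 0.30, adjusted p = 0.0309). The authors' deposited table has -0.89 (adjusted p = 0.0251). The edgeR call was lost when any 1 of 5 libraries was left out: without nicotine day 7 replicate 3 or 4, or nicotine day 5 replicate 2, 3 or 4, edgeR's adjusted p lay between 0.0512 and 0.0968, with the fold between -0.96 and -0.73. In vehicle embryos the edgeR value was -0.24 (SE 0.30, 95% interval -0.88 to 0.39, adjusted p = 0.568). Nicotine against vehicle at day 5 also gave -0.24 (SE 0.30, edgeR adjusted p = 0.752). With the 4 libraries lacking 57 loci left out, the day 5 value was -0.54 (edgeR adjusted p = 0.373). The difference of the nicotine effects was -0.69 (SE 0.42, 95% interval -1.59 to 0.21, edgeR adjusted p = 0.478), and so was not shown.

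FOXI3 reads came mostly from day 5 embryos. It had 0, 4, 0 and 0 counts in the nicotine day 7 libraries and 4, 0, 0 and 0 in the vehicle day 7 libraries, replicates 1 to 4 in order. At day 5 it had 17, 15, 18 and 34 counts in the nicotine libraries and 45, 25, 3 and 0 in the vehicle libraries. In nicotine embryos the days do not overlap, while in vehicle embryos they overlap through day 5 replicates 3 and 4. A count of 0 allows up to 3 counts, or 0.101 to 0.142 CPM by library, so FOXI3 at day 7 was at the limit of this depth and is not shown to be absent.

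In levels, FOXI3 averaged 0.890 ± 0.416 CPM in nicotine day 5 embryos and 0.764 ± 0.924 CPM in vehicle day 5 embryos (SD, n = 4 each), a difference smaller than the spread (edgeR log2 fold change 0.22, SE 1.10, adjusted p = 0.953). Summed over embryos, FOXI3 had 4 counts at day 7 against 84 at day 5 in nicotine embryos, 21.8-fold lower after scaling to depth (exact 95% interval 8.21 to 81.9, counting error only). In vehicle embryos the sums were 4 at day 7 against 73 at day 5, or 20-fold lower (exact 95% interval 7.48 to 75.3). Both day differences were called by edgeR, which called 29.6% of loci in nicotine embryos (16.5% lower) and 37.2% in vehicle embryos (19.6% lower), with adjusted p = 0.0303 and 0.0312 for FOXI3. They were also called in the authors' deposited tables, with adjusted p = 0.0156 and 0.0379. The fitted log2 fold changes were -4.35 and -4.14 in edgeR and -5.05 and -4.05 in the authors' deposited tables. They rest on 4 counts at day 7 under each treatment and are no bounds. FOXI3 entered the edgeR fit through its day 5 levels alone, since its day 7 levels were too low for the filter on low counts. With only the vehicle groups fitted it was filtered out. The edgeR calls therefore describe these counts and give no added support. Why edgeR and the authors' deposited tables differ was not tested.

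Both FOXI3 calls also rest on single libraries. In nicotine embryos the call was lost without day 7 replicate 1, 3 or 4 or day 5 replicate 4, with edgeR's adjusted p between 0.0655 and 0.0815. In vehicle embryos it was lost without day 7 replicate 2, 3 or 4, or day 5 replicate 1, where the adjusted p reached 0.126. With the 4 libraries lacking 57 loci left out, edgeR's adjusted p was 0.0643 in nicotine and 0.133 in vehicle embryos. The library lacking those loci had the highest FOXI3 level in 2 of 4 groups. At day 7 no fold between nicotine and vehicle can be given for FOXI3, since both groups summed to 4 counts.

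**Figure D2:**
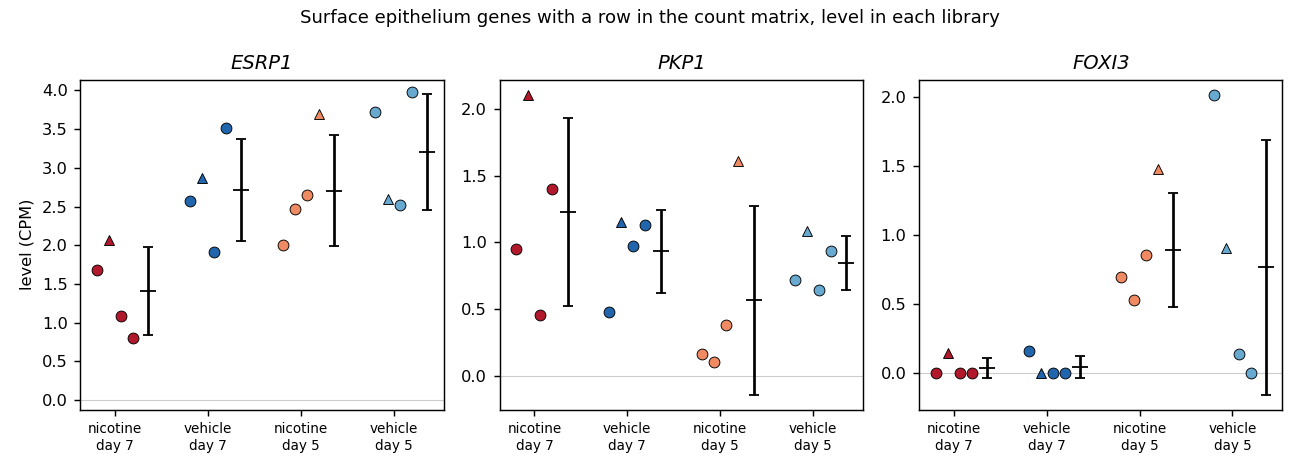
Level in CPM of ESRP1, PKP1 and FOXI3 in each of the 16 libraries by group, with the mean and SD of 4 embryos drawn beside the points; triangles mark the library of each group that lacks 57 loci. ESRP1 is lowest in nicotine day 7 (mean 1.41 CPM), the triangle is the highest PKP1 point in every group, and FOXI3 is at or near 0 in both day 7 groups.

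The 3 members with a level per embryo differed in how alike their patterns were. Over the 16 libraries the Pearson correlation of log2(CPM + 0.5) was 0.045 between ESRP1 and PKP1, 0.438 between ESRP1 and FOXI3, and -0.198 between PKP1 and FOXI3. After group means were taken out it was 0.502, 0.217 and 0.26 for the same pairs. These are descriptions, since the points share libraries, depth and, for FOXI3, many zeros.

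Among 379 named loci with a mean of at least 1 CPM, those most like ESRP1 over the 16 libraries were SYT8 (r = 0.881, Spearman's rho 0.791), GRHL2 (r = 0.836, rho 0.726), ENTPD3 (r = 0.812), EPHA1 (r = 0.808) and GMIP (r = 0.796). GRHL2 is a grainyhead-like transcription factor of epithelia. SYT8 and GRHL2 were also among the 5 most alike after group means were removed, at r = 0.819 and 0.673. For PKP1, among 380 such loci, the 5 were RBM20 (r = 0.796, rho 0.815), SLC27A6 (r = 0.757), IL17REL (r = 0.701), CAV2 (r = 0.698) and TMC1 (r = 0.651), none of them on the epithelial lists below. Of the genes on those lists, KLF4 had r = 0.601 and rho 0.815 with PKP1, and r = 0.677 and rho 0.83 after group means were removed, and OVOL2 had r = 0.745 after group means were removed. For FOXI3 the first 4 were ESYT3 (r = 0.855, rho 0.758), GPR160 (r = 0.835), ENTPD3 (r = 0.794) and SYK (r = 0.745).

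To set the members among other epithelial genes, 7 lists with 81 genes were drawn up, of which 50 were in the tables. For nicotine against vehicle at day 7, 0 of these 50 were called in the authors' deposited table, against 0.395% of rows with an adjusted p. An unadjusted p under 0.05 was found there for 8 of the 50, against 1139 of 21275 rows. The lists were drawn up with earlier results of these data known. The median log2 fold change over the listed genes was -0.18 against 0.01 over all rows, with 36 below 0, 12 above and 2 without a usable fold. Among 13 listed epithelial transcription and splicing regulators the median was -0.48, with 11 below 0 and 1 above. Among 6 adherens junction partners, the catenins and nectins that bind classical cadherins or sit beside them, the median was 0.02, with 2 below 0 and 4 above. Among 8 listed tight junction genes the median was -0.20, with 6 below 0 and 2 above. CLDN3, a claudin among these 8, had a fold change of -2.02 for nicotine against vehicle at day 7. It did not pass in the authors' deposited table (adjusted p = 0.0578).

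At day 5, 0 of 35 epithelial genes with an adjusted p were called higher under nicotine and 2 lower in the authors' deposited table. The shares over its rows with an adjusted p were 0.761% and 1.96%. Those 2 were NECTIN3, a cell adhesion molecule of the adherens junction, at -0.35 (adjusted p = 0.0478), and DST, a linker of the cytoskeleton that is also made outside epithelia, at -0.70 (adjusted p = 0.0110). The median over the 50 genes was -0.13. For the difference of the nicotine effects 0 of 36 were called in the authors' deposited table, against 2.25% of rows with an adjusted p. An unadjusted p under 0.05 was found there for 6 of the 36, against 2458 of 12651 rows.

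Between days, calls among the epithelial genes were about as frequent in nicotine embryos as among all rows. There 7 of 48 were called higher and 9 lower at day 7 in the authors' deposited table, which called 15.9% of all rows higher and 15.3% lower; the median over the genes was -0.18. Claudins were split: CLDN1 at -2.09 (adjusted p = 5.23e-05) and CLDN3 at -2.49 (adjusted p = 5.89e-05) fell in the authors' deposited table, while CLDN10, named after its value was seen, rose by 1.77 (adjusted p = 0.000137). ST14, the membrane protease matriptase, fell by 1.24 (adjusted p = 0.000151) in the authors' deposited table.

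ITGB4, the integrin subunit of hemidesmosomes, rose by 1.69 in nicotine embryos (adjusted p = 1.61e-13) and by 1.11 in vehicle embryos (adjusted p = 5.68e-07) at day 7 against day 5 in the authors' deposited tables. ITGB4 is also made by Schwann cells. TFAP2A, a transcription factor of ectoderm and neural crest, rose by 0.64 in nicotine embryos (adjusted p = 2.28e-05) and 0.58 in vehicle embryos (adjusted p = 0.000108) in the authors' deposited tables. ESRP2, the paralog of ESRP1, fell by 0.98 in nicotine embryos (adjusted p = 0.00394), and its value in vehicle embryos was -0.52 (adjusted p = 0.159) in the authors' deposited tables; it was named for its kinship with its values known.

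In vehicle embryos 6 of 49 epithelial genes were called higher and 8 lower at day 7 against day 5 in the authors' deposited table, with a median of -0.02; over all rows 36.8% were called, 18.1% higher and 18.7% lower. NECTIN3 at -0.52 (adjusted p = 1.89e-05) and the tight junction scaffold TJP1 at -0.58 (adjusted p = 0.000213) fell in the authors' deposited table. JUP, or plakoglobin, which sits in desmosomes and adherens junctions, rose by 0.37 (adjusted p = 1.08e-05) in the authors' deposited table.

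**Figure D3:**
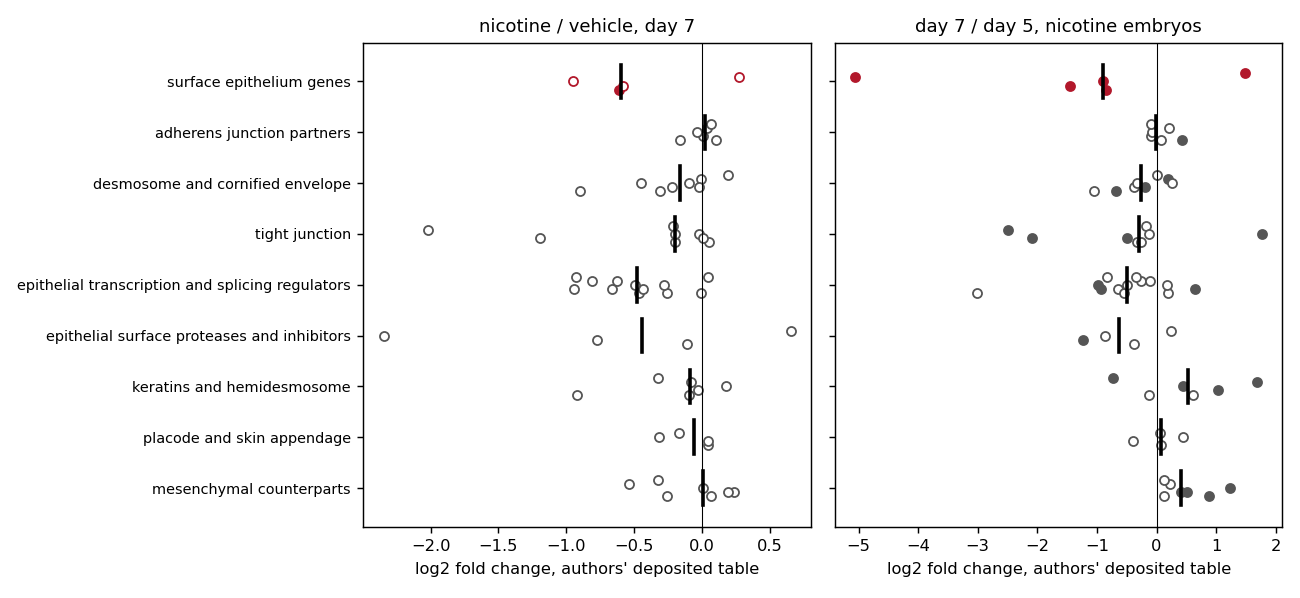
Log2 fold changes in the authors' deposited tables for the surface epithelium genes (red), 7 epithelial lists and the mesenchymal list, nicotine against vehicle at day 7 on the left and day 7 against day 5 in nicotine embryos on the right; filled points have an adjusted p under 0.05, bars are medians, and genes at or under 3 counts per library in both groups are not drawn. On the left CDH1 is the filled point of the plot and the regulators have a median of -0.48; on the right filled points lie on both sides of 0.

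Of the epithelial list genes, 10 have a row in the matrix. Their summed level was 6.56, 9.26, 5.22 and 6.32 CPM in the nicotine day 7 embryos and 8.70, 13.1, 9.83 and 9.86 CPM in the vehicle day 7 embryos, replicates 1 to 4 in order. At day 5 it was 8.40, 8.38, 9.47 and 15.2 CPM in the nicotine embryos and 15.95, 11.6, 11.9 and 11.5 CPM in the vehicle embryos. At day 7 the groups overlap through nicotine replicate 2, which lacks the 57 loci, and at day 5 through nicotine replicate 4, which lacks them too. In a piece of mixed tissue, fewer epithelial cells and less RNA per epithelial cell cannot be told apart, for these genes or for the members.

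GRHL2 made up much of this sum. It averaged 2.08 ± 1.05 CPM in nicotine day 7 embryos, 3.55 ± 0.954 in vehicle day 7 embryos, 3.83 ± 1.83 in nicotine day 5 embryos and 5.03 ± 1.61 in vehicle day 5 embryos (SD, n = 4 each). PKP3, another plakophilin, averaged 0.844 ± 0.438, 1.64 ± 0.802, 1.88 ± 0.894 and 2.31 ± 0.506 CPM in the same order of groups. As for ESRP1, nicotine day 7 had the lowest mean for both genes and vehicle day 5 the highest. For nicotine against vehicle at day 7 edgeR gave log2 fold changes of -0.77 for GRHL2 (SE 0.39), -0.96 for PKP3 (SE 0.46) and -0.61 for OVOL2 (SE 0.37), all with an adjusted p of 1. With the 4 libraries lacking 57 loci left out, the edgeR value for PKP3 was -0.41. The library lacking those loci was the highest of its group in 3 of 4 groups for GRHL2, OVOL2 and KLF4, and in 2 of 4 for PKP3. ELF3 at -0.26 (SE 0.31) and KLF4 at -0.39 (SE 0.40) were likewise not called by edgeR.

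TMPRSS2, a membrane protease of epithelia, ran differently. It averaged 0.936 ± 0.391 CPM in nicotine day 7 embryos, 0.590 ± 0.239 in vehicle day 7 embryos, 0.806 ± 0.310 in nicotine day 5 embryos and 1.62 ± 0.632 in vehicle day 5 embryos (SD, n = 4 each). In vehicle embryos it was lower at day 7 than at day 5, with an edgeR log2 fold change of -1.44 (SE 0.42, adjusted p = 0.0135), and the groups do not overlap. Without vehicle day 5 replicate 3 the edgeR value was -1.16 and was no longer called (adjusted p = 0.0569). In nicotine embryos the value was 0.21 (SE 0.41, edgeR adjusted p = 0.755).

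**Figure D4:**
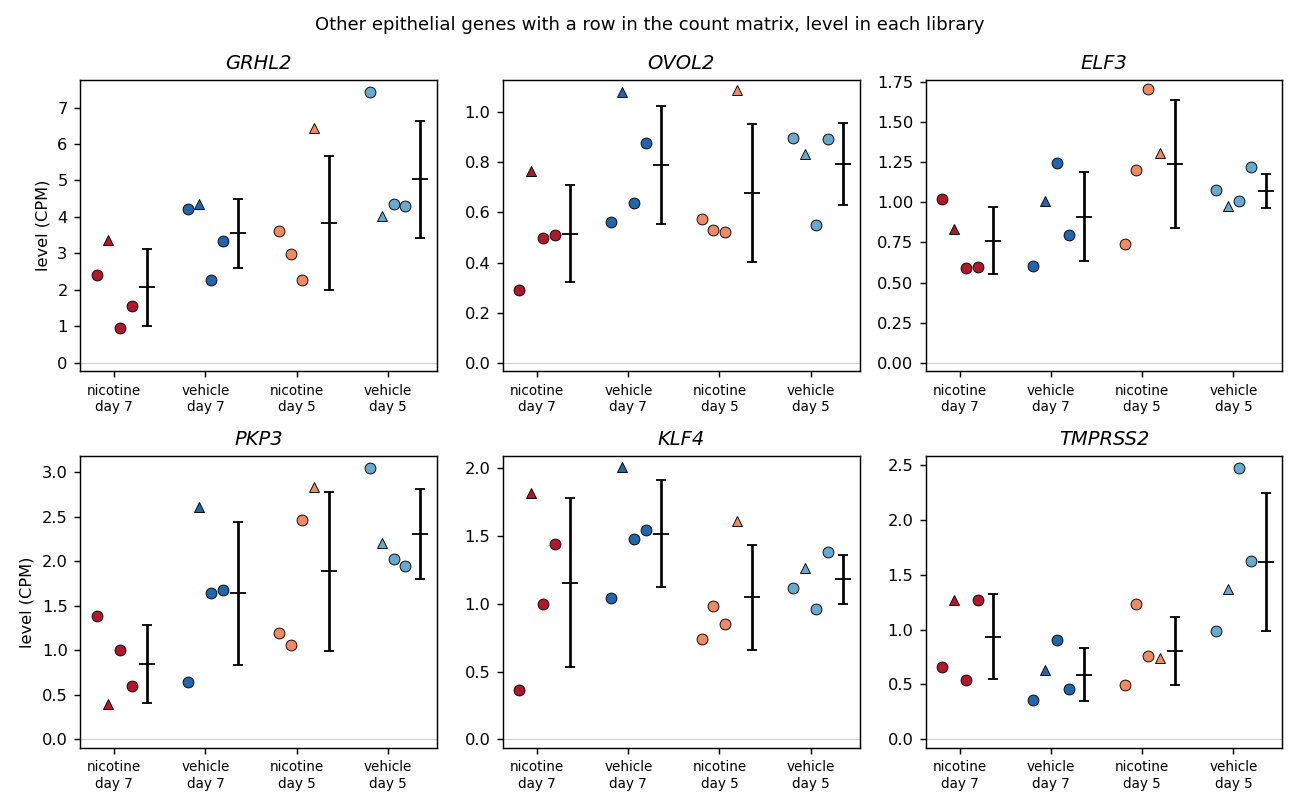
Level in CPM of GRHL2, OVOL2, ELF3, PKP3, KLF4 and TMPRSS2 in each of the 16 libraries by group, with the mean and SD of 4 embryos beside the points; triangles mark the library of each group that lacks 57 loci. GRHL2 has its lowest mean in nicotine day 7 (2.08 CPM) and its highest in vehicle day 5 (5.03 CPM), and TMPRSS2 is the panel where the 2 vehicle groups do not overlap.

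Markers of other epithelia that the piece could hold were checked beside the members. Of 9 endoderm genes, 5 were listed. HNF4A and CDX1, which mark liver and gut, were at 0 in 12 of 16 libraries each, with at most 11 and 4 counts. Their matrix rows may hold only part of their reads, so these zeros do not show that liver or gut was absent. FOXA1, made in endoderm and also in floor plate, was at 1.65 to 4.70 CPM in every library. It averaged 2.39 ± 0.448 CPM in nicotine day 7 embryos, 2.92 ± 0.763 in vehicle day 7 embryos, 3.84 ± 0.583 in nicotine day 5 embryos and 2.50 ± 0.603 in vehicle day 5 embryos (SD, n = 4 each).

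FOXA1 was lower at day 7 than at day 5 in nicotine embryos, as were CDH1, EPCAM, ESRP1 and FOXI3 but not PKP1, with an edgeR log2 fold change of -0.68 (SE 0.24, adjusted p = 0.0409). The call was lost without any of 7 of the 8 libraries compared (all but nicotine day 7 replicate 4; adjusted p 0.0598 to 0.117). It was also lost with the 4 libraries lacking 57 loci left out (edgeR adjusted p = 0.135), and in 3 of 4 groups the library lacking them was the highest for FOXA1. In vehicle embryos the FOXA1 value was 0.22 (SE 0.24, edgeR adjusted p = 0.505). For nicotine against vehicle, edgeR gave FOXA1 0.62 at day 5 (SE 0.24, adjusted p = 0.28) and -0.29 at day 7 (SE 0.24). FOXA1 was not called by edgeR at either day. The listed endoderm genes had a median of 0.67 for nicotine against vehicle at day 5 in the authors' deposited table, with 3 above 0 and 1 below. Only 1 of the 5 had an adjusted p there. Of the 5 listed endoderm genes, 3 had an adjusted p for day 7 against day 5 in nicotine embryos. All 3 were called lower in the authors' deposited table, against 15.3% of all rows. In vehicle embryos 0 of the 4 with an adjusted p were called in the authors' deposited table, against 36.8% of all rows. Of 6 mesonephros genes, 3 were listed. LHX1, also made by spinal interneurons, was higher at day 7 than at day 5 in nicotine embryos (1.24, adjusted p = 0.00662) and in vehicle embryos (1.57, adjusted p = 0.000318) in the authors' deposited tables. WT1 was called lower in vehicle embryos (-1.32, adjusted p = 0.00292) in the authors' deposited table. The part of endoderm or mesonephros in the members' day difference was not tested. Keratins and TP63 were on the lists drawn up, but no value of theirs is given here. CDH1, EPCAM and ESRP1 are shared with other epithelia and do not settle the surface label. PKP1 and FOXI3 rest on few counts per library.

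Markers of the other tissues in the piece also differed between groups. Of the 4 listed spinal cord markers, 3 were called lower at day 7 than at day 5 in nicotine embryos in the authors' deposited table. That table called 15.3% of rows with an adjusted p lower. The median log2 fold change of the 4 markers was -0.63. The authors' deposited table has NKX6-1, a ventral progenitor factor, at -0.67 (adjusted p = 5.96e-05), and ISL1, a motor and sensory neuron factor, at -0.59 (adjusted p = 0.00774). The authors' deposited table for vehicle embryos has 1 of the 4 called lower, PAX6 (-0.80, adjusted p = 0.0158), against 18.7% of rows with an adjusted p. At day 5 the authors' deposited table called ISL1 (0.65, adjusted p = 0.0338) and NKX6-1 (0.51, adjusted p = 0.0348) higher under nicotine. Of its rows with an adjusted p, 0.761% were called higher. ACAN, or aggrecan of cartilage, rose at day 7 against day 5 by 2.59 in nicotine embryos (adjusted p = 1.36e-11) and by 2.61 in vehicle embryos (adjusted p = 4.30e-12) in the authors' deposited tables. The part of these tissues in the members' values was not tested.

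Genes of mesenchyme, whose programme is set against the epithelial one, were checked from a list of 11, of which 7 were in the tables. For nicotine against vehicle at day 7, 0 of 7 were called in the authors' deposited table, against 0.395% of rows with an adjusted p. An unadjusted p under 0.05 was found there for 3 of the 7, against 1139 of 21275 rows. The median log2 fold change of the 7 was 0.01. Between days 4 of 7 were called higher and 0 lower in nicotine embryos, where 15.9% of all rows were called higher in the authors' deposited table. In vehicle embryos 6 of 7 were called higher and 0 lower, against 18.1% of all rows called higher in the authors' deposited table, and the gene not called had a value below 0. FN1, or fibronectin, rose by 1.23 in nicotine embryos (adjusted p = 5.14e-09) and by 1.26 in vehicle embryos (adjusted p = 1.10e-09) in the authors' deposited tables.

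ZEB1, a transcription factor known in mammalian cells to repress CDH1, EPCAM and ESRP1, had a nicotine effect that differed between days in the authors' deposited table, by 0.51 (adjusted p = 0.0228). Its nicotine against vehicle value in the authors' deposited tables was 0.19 at day 7 (adjusted p = 0.900) and -0.32 at day 5 (adjusted p = 0.0464). CDH1, EPCAM and ESRP1 had nicotine against vehicle values of -0.61, -0.58 and -0.95 at day 7 in the authors' deposited tables. Their day 5 values there were -0.01, 0.04 and -0.30. The part of ZEB1 in the members' values was not tested.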

How the data were processed

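RNA-seq libraries from 16 chicken embryos were analysed. Per the submitters' processing notes, the tools were StringTie 1.3.3b, HISAT2 2.0.5 and Bowtie2 2.3.2, DESeq2, Trim Galore 0.4.4 and FastQC 0.11.5, listed with no role or order. The matrix was deposited as whole-number counts per locus, not normalised. The 5 comparison tables hold log2 fold changes, linear fold changes, p-values and adjusted p-values as the authors deposited them, per the file headers, with no standard errors. An adjusted p of exactly 1 in them was read as none. 0 per-sample columns were unmapped.

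Of 26943 loci, 8685 carry a gene identifier and hold 0.334% of counts, and 1141 pair with a symbol through the tables. Counts were fitted over all 16 libraries with 4 group means by edgeR 4.0.16 (filterByExpr, TMM, quasi-likelihood test, Benjamini-Hochberg adjustment over 18394 loci) in R 4.3.3. CPM were scaled to the TMM-adjusted total of the loci tested. DESeq2 1.42.0 and other settings were alternatives. The fits were tested on simulated data. Counting intervals and floors (3 counts) cover counting error only.

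The members, the 15 gene lists and the tests were chosen with earlier results of these data known. Named genes are the members, up to 2 called genes per list and comparison with the smallest p in the authors' tables, and list genes with a matrix row. The 5 loci most like PKP1 were ranked by Pearson's r of log2(CPM + 0.5), and the same was later done for ESRP1 and FOXI3. Replicate numbers do not pair the embryos. Promoter sequences were not analysed here. Some genes that the rule names are not reported here.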

Additional observations from a re-analysis of the deposited data

Results flagged for a closer look

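In a screen of 52 sets of 4 libraries (13 genes in each group), a library far from its group was found 5 times. The rule flags about 1 in 20 sets of normally distributed values, which counts this low need not follow. A lone library above 0 is always flagged, as in both FOXI3 sets. FOXI3 stood at 0.145 CPM in nicotine day 7 replicate 2 and at 0.160 CPM in vehicle day 7 replicate 1, 4 counts each, with the other 3 libraries of either group at 0. GRHL2 stood at 7.44 CPM in vehicle day 5 replicate 1, above 4.01 to 4.36 CPM in the other 3. OVOL2 stood at 1.09 CPM in nicotine day 5 replicate 4, which lacks the 57 loci. LAMB3, a laminin chain of epithelial basement membrane, stood at 0.590 CPM in nicotine day 7 replicate 3. In the authors' deposited table the nicotine effect on ZEB1 differed between day 7 and day 5 by 0.51 on the log2 scale (adjusted p = 0.0228).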

How the results depend on the processing

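At these depths PKP1 and FOXI3 rest on at most 58 and 45 counts per library, and edgeR called 0 loci for nicotine against vehicle at day 7 and at day 5 and for the difference of the effects, with 858, 2747 and 2521 loci at an unadjusted p under 0.05. For day 7 the count was 5 with only the groups compared, 31 in DESeq2 and 0 to 1 without single libraries. For day 5 it was 1 with a term for the 4 libraries lacking 57 loci, 1 with the replicate block, 2 with those 4 left out (chosen after seeing the data), 264 in DESeq2 and 0 to 3 without single libraries. For the difference it was 1, 1, 2 and 242 in the same order, and 0 to 5. In nicotine embryos between days, ESRP1 lost its call with only the groups compared (-0.93) and with the 4 libraries left out (-0.99), and ran from -1.17 to -0.73 without single libraries. There, with the 4 libraries left out, FOXI3 lost its call (-7.08) and PKP1 gained one (2.13), and without single libraries they ran from -7.45 to -3.95 and from 0.75 to 2.52. FOXI3 in vehicle embryos lost its call with the replicate block (-3.92) and the 4 libraries left out (-3.66), and ran from -7.26 to -3.02. FOXI3 at day 5 turned to -0.0733 with the 4 libraries left out, and ran from -0.22 to 1.3. PKP1 at day 7 ran from -0.00514 to 0.66. TMPRSS2 (-0.00884 with the 4 left out) and KLF4 (-0.15 to 0.45) also turned sign between days in nicotine embryos. The cause of these changes was not tested. For the other genes, 254 of the values kept direction and call, 11 lost a call, 3 gained one and 2 turned. The replicate block changed no other call of a gene named here. Same-numbered libraries deviated together with r from -0.304 to 0.393 over 24 pairs, 8 of them over 0.1. In 7 of the 24 pairs the closest library of the other group bore the same number, so the numbers do not pair the embryos. FOXI3 was filtered out with only the groups compared for vehicle embryos between days.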

Other observations

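Within groups, 1 embryo often stood highest for many of the 13 tested epithelial and other-tissue genes at once, members included. Nicotine day 5 replicate 4 was highest in its group for 9 of 13, among them PKP1, ESRP1, FOXI3, GRHL2, OVOL2 and FOXA1, nicotine day 7 replicate 2 for 8 and vehicle day 7 replicate 2 for 6. These are 3 of the 4 libraries that lack 57 loci. Vehicle day 5 replicate 2, the other one, was highest for 4 of 13, fewer than the 5 of replicate 1, which does not lack the loci. The share of all tested loci that stood highest in each library was not counted. These counts are therefore not shown to be particular to these genes.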
